A study of Mus musculus with 1049 samples.

Results

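Wnt signalling is held in check or strengthened by proteins that fibroblasts secrete around themselves. Described here are 10 genes of that layer and of its response: the secreted inhibitors Wif1, Sfrp1, Sfrp2, Sfrp4, Dkk2 and Dkk3, the R-spondins Rspo1 and Rspo3, and the pathway targets Axin2 and Lef1. They were taken by name, through their gene identifiers, from the 51777 genes common to all count tables. All 10 were present and all 10 passed the filter on low counts.

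Wnt ligands bind Frizzled receptors with Lrp5 or Lrp6 and keep beta-catenin from being destroyed, so that it enters the nucleus and acts with DNA-binding proteins of the TCF/LEF family. Wif1 and the Sfrp proteins bind Wnt ligands outside the cell, Dkk2 blocks the Lrp co-receptors, and R-spondins keep Frizzled at the surface by removing the ligases that clear it. In skin the pathway is known for its part in forming and cycling hair follicles, and in newborn mouse dermis Lef1 is known as a gene of the upper, papillary layer.

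Dermal fibroblasts came from C57Bl/6 mice of 3 ages, newborn (1.5 or 2.5 days), young (2 months) and old (18 months), and no genetic change or treatment is given for any group. Skin patches in the hair growth phase and the tissue under the dermis were removed, and cells were sorted by lineage markers, CD34 and Pdgfra into single plate wells for Smart-seq2, which reads polyadenylated RNA without molecular identifiers. The protocol names female littermates for its work on newborn subpopulations, and the labels tie no cell to a mouse.

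After filtering, 249 newborn, 246 young and 240 old cells remained, on 9 plates that each held every age. Their reads were added per age and experiment into 6 sums of 119682449 to 195324769 reads, so that n = 2 sums per age, 1 per experiment. Levels are CPM, the counts of a sum scaled to its library size times its TMM factor, and shares of cells were counted after each cell was thinned to 100000 reads. Thinned newborn cells had a median of 1802 and 2197 genes with a read in experiments 1 and 2, young cells 1654 and 2029.5 and old cells 1505 and 1708.5; whether this moved the shares below was not tested beyond the thinning. The 6 fibroblast markers summed to 78869 CPM or more in every sum. The 5 immune markers summed to 1.78 and 0 CPM in newborn sums, 145 and 33.1 CPM in young sums and 10.0 and 11.6 CPM in old sums, with Ptprc, the gene of CD45, and Tyrobp at 0 in every sum and Csf1r the 1 marker read in young experiment 1. The 5 keratinocyte markers summed to 22.5 to 67.3 CPM over the 6 sums, and 1 of them, Krt10, was found in 14.3 to 43.3% of thinned cells. Of 5 cycling markers, all were read in newborn sums (426 and 237 CPM in all), 0 in young sums and 2 in old sums (0 and 1.41 CPM). The 5 endothelial markers summed to 28.2 and 6.72 CPM in newborn sums, 74.2 and 39.1 CPM in young sums and 70.5 and 58.2 CPM in old sums, with Cdh5 and Tie1 at 0 in every sum. The endothelial gene Plvap was found in 8.86 and 7.69% of thinned newborn cells. In young cells its share was 28.9 and 29.8%, and in old cells 27.8 and 15.8%. The part of these markers in the results below was not tested.

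RefSeq promoters (GRCm38.p6, plus strand, the 250 bases before a start site) were found for 6 of the 10 genes. They are shown for the pair of inhibitors that had the highest newborn levels, Wif1 at chr10:121033754-121034003 and Sfrp2 at chr3:83766071-83766320, and for the pathway targets, Axin2 at chr11:108920099-108920348 and a start site inside the Lef1 gene at chr3:131156044-131156293. Capitals mark the TCF/LEF core CTTTGA or its reverse complement TCAAAG.
Wif1: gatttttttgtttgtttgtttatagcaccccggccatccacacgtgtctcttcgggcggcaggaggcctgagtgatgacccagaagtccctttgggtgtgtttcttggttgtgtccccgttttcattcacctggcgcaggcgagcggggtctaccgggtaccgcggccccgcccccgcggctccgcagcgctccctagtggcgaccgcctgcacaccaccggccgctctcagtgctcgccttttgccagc
Sfrp2: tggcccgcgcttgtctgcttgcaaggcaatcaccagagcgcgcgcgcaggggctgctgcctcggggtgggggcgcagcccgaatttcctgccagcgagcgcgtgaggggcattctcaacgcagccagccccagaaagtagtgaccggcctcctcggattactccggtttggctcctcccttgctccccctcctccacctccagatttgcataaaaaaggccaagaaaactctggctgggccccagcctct
Axin2: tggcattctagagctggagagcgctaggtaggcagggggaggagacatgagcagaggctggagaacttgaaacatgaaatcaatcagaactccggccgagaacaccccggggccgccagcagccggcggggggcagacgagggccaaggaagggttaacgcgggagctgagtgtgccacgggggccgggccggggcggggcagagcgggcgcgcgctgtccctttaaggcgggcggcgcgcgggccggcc
Lef1: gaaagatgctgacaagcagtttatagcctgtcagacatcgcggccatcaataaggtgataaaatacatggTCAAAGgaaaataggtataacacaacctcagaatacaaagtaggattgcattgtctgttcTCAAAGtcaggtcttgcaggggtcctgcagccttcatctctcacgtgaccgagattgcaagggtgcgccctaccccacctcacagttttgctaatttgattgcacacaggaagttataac
The core stood at 180 and 120 bases before this Lef1 start and in none of the other 8 start sites of the 6 genes, 3 of them of Lef1. Of all 32851 RefSeq promoters of the same length, 13.8% held it on either strand.

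Sfrp2, a secreted Frizzled-related protein that binds Wnt ligands, was the most abundant of the 10 genes in newborn dermis per kilobase of exon and fell between newborn and old cells. It was at 429 and 433 CPM in newborn sums of experiments 1 and 2, 103 and 26.2 CPM in young sums and 0 and 0.0111 CPM in old sums. No sum of 1 age overlapped a sum of another. Reads lay in 63.3 and 56.0% of newborn cells (exact 95% intervals 55.3 to 70.8% and 45.2 to 66.4%), 2.11 and 0.962% of young cells and 0 of 126 and 0 of 114 old cells, which allows up to 2.38 and 2.63% (3 cells). Unthinned, the old sums held 2 reads in 1 cell, against 150207 reads in newborn sums. The mean level was 77414-fold lower in old than in newborn sums (counting interval 19499 to 581630). The interval takes reads as independent, although the 2 old reads lay in 1 cell, so it does not cover the spread between cells. The adjusted p was 0.0223 by edgeR's quasi-likelihood test over 16684 genes. Sfrp2 was the 1 member of the 10 called lower at 18 months, where 0.138% of all genes tested were lower. The call was lost with the experiment as a block (adjusted p 0.0679) and lay between 0.0485 and 0.168 when 1 sum was left out.

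The young sums held Sfrp2 in few cells at high levels. It was 6.68-fold lower in young than in newborn sums by the mean (log2 fold change -2.74 ± 0.78 SE, edgeR adjusted p 0.255), which did not pass, while DESeq2 (adjusted p 0.00327) and limma on mean log2 values (1.39e-05) called it lower. The cells with a read had a median of 2656 CPM in experiment 1 (3 cells) and 1171 CPM in experiment 2 (1 cell), against 501 and 537 CPM in the newborn cells with a read. All 4 young Sfrp2 cells also carried Sfrp4, with 1174, 1496, 1924 and 5144 Sfrp4 reads, while Sfrp4 was read in 13 of the 246 young cells. In newborn dermis 0 of 5 Sfrp4 cells carried Sfrp2, although Sfrp2 was read in 64.7% of all newborn cells. These cell counts were singled out after their values were seen. Between old and young sums the mean level of Sfrp2 was 11591-fold lower (counting interval 3037 to 90598). This interval too takes reads as independent, although all young reads lay in 4 cells. In edgeR the unadjusted p was 1.55e-04 and the adjusted p 0.517. DESeq2 called Sfrp2 lower (adjusted p 7.32e-22), and the alternatives ran up to 1.

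Wif1, which binds Wnt ligands through its own WIF domain, was read almost only in newborn cells. It was at 318 and 324 CPM in newborn sums, 0.0131 and 7.37 CPM in young sums and 0 and 0 CPM in old sums. Every newborn sum lay above every adult sum. Reads lay in 32.3 and 40.7% of newborn cells, in 0 and 0.962% of young cells and in 0 of 240 old cells. The young level rested on 1 cell of experiment 2 with 982 reads, and without it the 2 young sums held 2 reads each. On a floor of 3 reads over both old sums, old sums were 35026-fold lower than newborn sums. Young sums were 87.0-fold lower by the mean. Neither passed (edgeR adjusted p 0.212 and 0.433). The floor counts reads and not cells, and 0 cells with a read allow up to 2.38 and 2.63% of old cells. The value of 35026 is thus no lower limit on the difference. DESeq2 called Wif1 lower in old than in newborn and in old than in young sums. Both limma fits called it lower in young and in old than in newborn sums. Wif1 entered the limma fit on mean log2 values through newborn cells only. Without the young sum of experiment 2, edgeR called it lower in old than in newborn sums (adjusted p 0.0485).

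**Figure D1:**
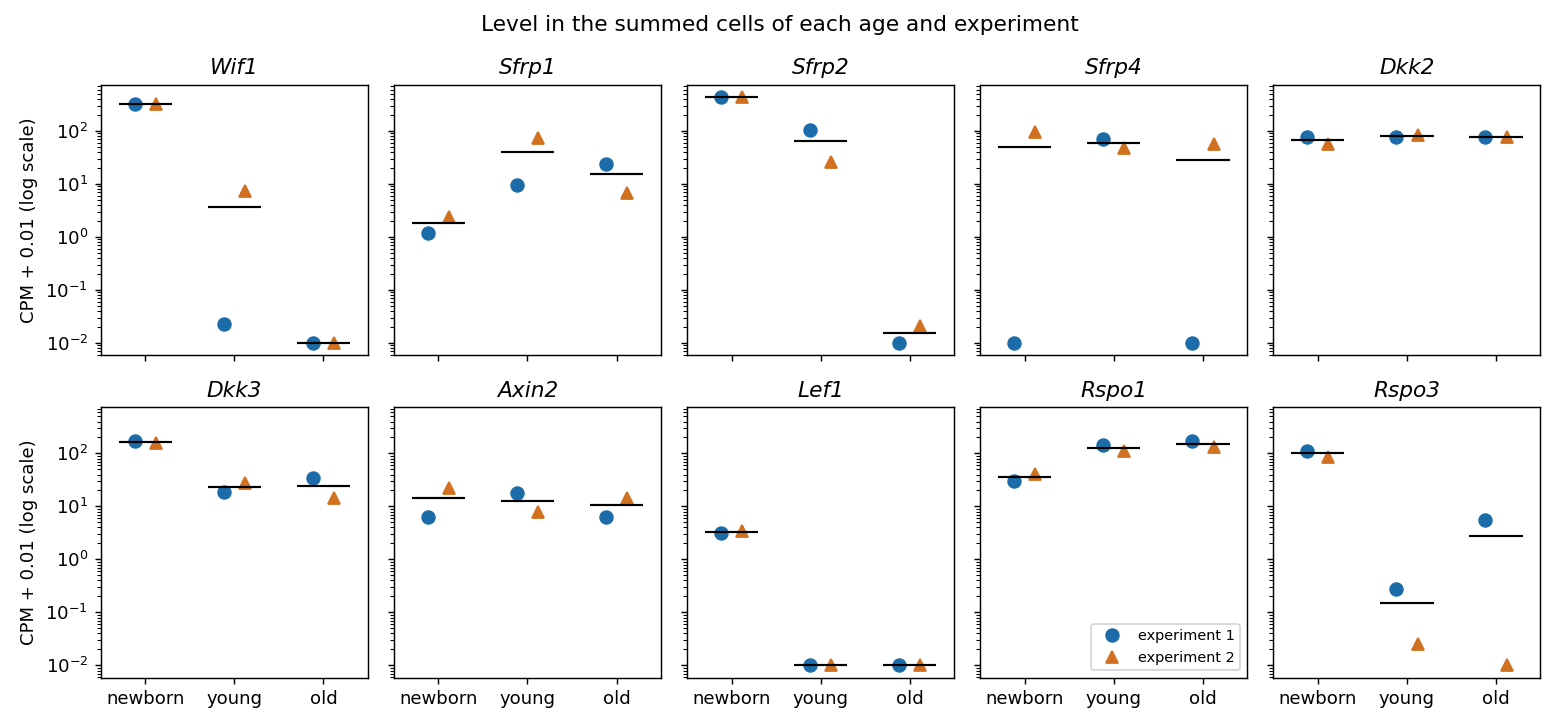
Level of each gene in the 6 sums, as CPM + 0.01 on a log scale, with circles for experiment 1, triangles for experiment 2 and a bar for the mean of each age. Wif1, Sfrp2, Dkk3, Lef1 and Rspo3 lay higher in both newborn sums than in any adult sum, Rspo1 and Sfrp1 lower, and Dkk2 was nearly level.

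Dkk3, a divergent Dickkopf family member whose action on Wnt signalling varies between settings, was lower in adult cells at both ages. It was at 172 and 158 CPM in newborn sums, 19.0 and 28.0 CPM in young sums and 34.1 and 14.5 CPM in old sums. Newborn sums lay above all adult sums, and the young and old ones overlapped. Young sums were 7.01-fold lower than newborn sums (log2 fold change -2.81 ± 0.53 SE, edgeR adjusted p 0.134) and old sums 6.77-fold lower (-2.76 ± 0.52 SE, 0.123), neither past the threshold. After thinning, Dkk3 was called lower in both comparisons, and DESeq2 and both limma fits did the same. Dkk3 entered the limma fit on mean log2 values through newborn cells only. The difference lay in the share of cells. It had reads in 33.5 and 37.4% of newborn cells, 4.23 and 5.77% of young cells and 3.97 and 4.39% of old cells, while the cells with a read had medians of 346 and 484 CPM in newborn cells, 387 and 365 CPM in young cells and 663 and 292 CPM in old cells.

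Dkk2, which binds Lrp co-receptors and blocks Wnt input, had like summed levels at all ages and a smaller share of cells in old dermis. It was at 76.7 and 57.3 CPM in newborn sums, 77.8 and 83.2 CPM in young sums and 75.8 and 76.3 CPM in old sums. The edgeR adjusted p was 0.815 for young against newborn, 1 for old against young and 0.88 for old against newborn sums. It had reads in 24.7 and 17.6% of newborn cells, 14.8 and 18.3% of young cells and 9.52 and 9.65% of old cells, so the old shares were the lowest in both experiments. The exact 95% intervals were 5.02 to 16.0% and 4.92 to 16.6% in old cells, against 18.2 to 32.2% and 10.4 to 27.0% in newborn cells, and overlapped in experiment 2. The young intervals, 9.39 to 21.7% and 11.4 to 27.1%, overlapped the old ones in both experiments. A single cell held 50.9% of the Dkk2 reads of old experiment 2, and without the top cell of each sum the old mean was 46.6 CPM and the newborn mean 53.0 CPM.

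Sfrp1 and Sfrp4, further Frizzled-related inhibitors, were read in few cells of any age. Sfrp1 was at 1.16 and 2.42 CPM in newborn sums, 9.71 and 72.0 CPM in young sums and 24.1 and 6.82 CPM in old sums. Both adult ages lay above newborn, 22.8-fold higher in young (edgeR adjusted p 0.258) and 8.64-fold in old sums (0.349), and neither passed. DESeq2 called Sfrp1 higher in young sums (adjusted p 0.00190). The log2 fold change of 4.51 between young and newborn sums was 2.44 without the young sum of experiment 2 and 6.64 without the cell with most reads in each sum. In experiments 1 and 2 it was read in 2 and 1 newborn, 7 and 13 young and 5 and 5 old cells. After thinning, none of the 20 young Sfrp1 cells carried Rspo1 or Dkk2, which were read in 54 and 40 of the 246 young cells. Of these 20 cells, 4 carried Sfrp4. Of 10 old Sfrp1 cells, 2 carried Rspo1, which was read in 50 of the 240 old cells, and 0 carried Dkk2. These pairs are named out of all 45 pairs of members. Sfrp4 was at 0 and 97.4 CPM in newborn sums, 71.2 and 48.0 CPM in young sums and 0 and 56.4 CPM in old sums, so that newborn and old dermis each had 1 sum with no read. A single cell held 68.6% of the newborn reads of Sfrp4 in experiment 2 and another 91.2% of the old ones. Its ages overlapped in every comparison (edgeR adjusted p 0.975 to 1).

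Rspo1, an R-spondin that strengthens Wnt signals through Lgr receptors, was the most abundant of the 10 genes per kilobase of exon in both adult ages. It was at 30.7 and 41.3 CPM in newborn sums, 143 and 111 CPM in young sums and 168 and 132 CPM in old sums. The newborn sums lay below all others, and young and old overlapped. Young sums were 3.54-fold higher than newborn sums (log2 fold change 1.82 ± 0.31 SE, edgeR adjusted p 0.109) and old sums 4.17-fold higher (2.06 ± 0.31 SE, 0.0757), neither past the threshold. After thinning both passed, as they did with DESeq2 and both limma fits. Rspo1 entered the limma fit on mean log2 values through adult cells only. Rspo1 had reads in 6.33 and 7.69% of newborn cells, 21.1 and 23.1% of young cells and 22.2 and 19.3% of old cells. Its median in cells with a read was 563 and 366 CPM in newborn cells, 479 and 373 CPM in young cells and 640 and 392 CPM in old cells, so the level within carrying cells was of the same size at all ages.

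Rspo3, the other R-spondin, was higher in newborn sums. It was at 113 and 87.3 CPM in newborn sums, 0.262 and 0.0150 CPM in young sums and 5.63 and 0 CPM in old sums, the newborn sums above all others. Reads lay in 31.6 and 31.9% of newborn cells, 0.704 and 0% of young cells and 1.59 and 0% of old cells. Young sums were 724-fold lower than newborn sums (edgeR adjusted p 0.344) and old sums 35.6-fold lower (0.493), neither past the threshold. DESeq2 called it lower in young sums, and both limma fits called it lower at both adult ages. Rspo3 entered the limma fit on mean log2 values through newborn cells only. The old level came from 2 cells of experiment 1, with 789 and 42 reads, and both of these also carried Dkk2, which was read in 28 of 240 old cells. Per kilobase of exon, Rspo1 was the more abundant R-spondin in old sums (77.5 ± 13.2 CPM per kb, against 0.911 ± 1.29 for Rspo3; SD, n = 2) and Rspo3 in newborn sums (32.5 ± 5.98, against 18.6 ± 3.85 for Rspo1).

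**Figure D2:**
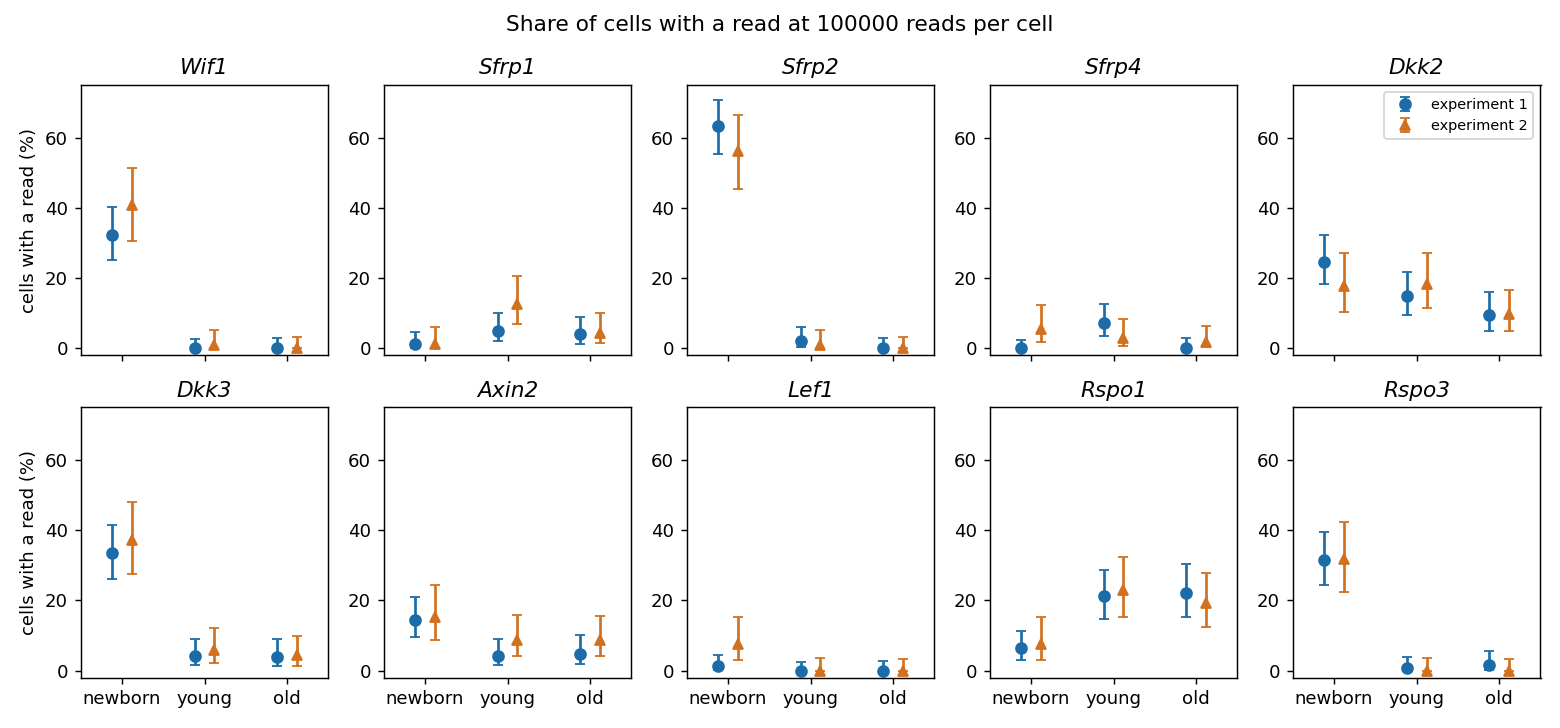
Percent of cells with at least 1 read of each gene after thinning to 100000 reads, by age and experiment, with exact 95% intervals that cover the counting of cells only. Sfrp2, Wif1, Dkk3 and Rspo3 were read in at most 5.77% of adult cells and 31.6 to 63.3% of newborn cells, and Rspo1 in 19.3 to 23.1% of adult cells.

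Axin2, a scaffold of the beta-catenin destruction complex that Wnt signals induce as feedback, overlapped between all ages. It was at 6.28 and 22.6 CPM in newborn sums, 17.6 and 7.99 CPM in young sums and 6.34 and 14.5 CPM in old sums (edgeR adjusted p 0.925 to 1). Single cells set much of this spread: 1 cell held 70.5% of the newborn reads of experiment 2 and another 83.1% of the young reads of experiment 1. Its share of cells was 14.6 and 15.4% in newborn cells, 4.23 and 8.65% in young cells and 4.76 and 8.77% in old cells, lower in both adult ages in each experiment. With at least 5 reads asked for, the shares were 3.16 and 4.40% in newborn cells, 1.41 and 4.81% in young cells and 1.59 and 6.14% in old cells, and experiment 2 no longer had the highest share in newborn cells.

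Lef1, a DNA-binding partner of beta-catenin, was read in newborn cells only. It was at 3.12 and 3.43 CPM in newborn sums and had no read in the 246 young and 240 old cells, which allows shares of up to 2.11 and 2.88% of young cells and of up to 2.38 and 2.63% of old cells. On a floor of 3 reads, young sums were 313-fold and old sums 358-fold lower than newborn sums (edgeR adjusted p 0.258 and 0.225), and neither passed. Limma on log2(mean CPM + 1) called Lef1 lower in both (0.0242 and 0.0220), and DESeq2 did not (0.0970 and 0.0787). The floor counts reads and not cells, so these folds are no lower limits. Lef1 had a share of 1.27% in newborn cells of experiment 1, below the shares allowed for young and old cells. Its newborn reads lay in 2 cells of experiment 1 and 8 of experiment 2, and 1 cell held 96.3% of the reads of experiment 1. Of these 10 cells 6 carried Sfrp2, 5 Dkk3, 5 Rspo3, 4 Wif1 and 2 Axin2. Over all newborn cells these genes were read, in the same order, in 64.7, 37.3, 33.7, 35.7 and 20.1%. Gm43352, an antisense gene that shares 1208 exon bases with Lef1, had 344 newborn reads, or 30.3% of the Lef1 reads, and the strand setting of the counting is not given.

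Over the 10 genes, 0 passed the edgeR test between young and newborn sums, where 0.779% of all genes tested did, 0 between old and young sums (0.0% of all genes, with 810 genes at an unadjusted p under 0.05 and 1048 called by DESeq2), and 1 between old and newborn sums (0.935%). Both young sums lay above both newborn sums for 3 members and below for 5, where 22.1% and 25.1% of all genes did. Between old and newborn sums these counts were 2 and 5 (21.6% and 25.7% of all genes), and between old and young sums 0 and 3 (15.0% and 15.9%). The median log2 fold change of the 10 was -1.46 for young against newborn, -0.19 for old against young and -1.77 for old against newborn sums, beside -0.07, 0 and -0.08 over all genes tested. The comparisons share sums and are not independent of each other. DESeq2 called 5, 2 and 4 members in these comparisons, in the order young against newborn, old against young and old against newborn (14.3, 6.28 and 17.1% of all genes), and edgeR on thinned cells 2, 0 and 3 (1.92, 0.0 and 2.17%). Limma called 5, 0 and 6 members on log2(mean CPM + 1) (4.94, 0.0 and 5.66%) and 5, 0 and 5 on mean log2(CPM + 1) per cell, where 6970 genes were tested (19.3, 0.1 and 26.1%). A fit of edgeR with an experiment term as block called 0 members in each (0.15, 0.0 and 0.306%). Per kilobase of exon the newborn order by mean level was Sfrp2 (200 CPM), Wif1 (132), Dkk3 (49.0), Rspo3 (32.5), Rspo1 (18.6), Dkk2 (18.1), Sfrp4 (11.6), Axin2 (2.62), Sfrp1 (0.409) and Lef1 (0.373). Among neighbours in this order the sums overlapped for Rspo1 and Dkk2, Dkk2 and Sfrp4, Sfrp4 and Axin2, and Sfrp1 and Lef1. In young sums the order was led by Rspo1 (65.7), Sfrp2 (30.0), Dkk2 (21.7) and Sfrp4 (14.3), and in old sums by Rspo1 (77.5), Dkk2 (20.5), Dkk3 (7.25) and Sfrp4 (6.75). Young Sfrp2, at 47.7 and 12.2 CPM per kb, overlapped young Dkk2 (21.0 and 22.4), and old Sfrp4, at 0 and 13.5, overlapped old Dkk3 (10.2 and 4.32).

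Newborn cells carried more of these genes per cell, which follows in part from the single shares above, since the mean per cell is their sum. Whether genes lay together beyond these shares was not tested by the counts that follow. A thinned newborn cell had a read of 2.09 of the 10 genes on average in experiment 1 and 2.21 in experiment 2, a young cell of 0.592 and 0.731 and an old cell of 0.460 and 0.482. At least 2 were read in 64.6 and 71.4% of newborn cells, 11.3 and 17.3% of young cells and 8.73 and 8.77% of old cells. No read of any of them was found in 10.8 and 8.79% of newborn cells, 52.8 and 51.9% of young cells and 63.5 and 60.5% of old cells. The young and old shares with at least 2 lay apart from each newborn share by more than the difference between experiments.

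**Figure D3:**
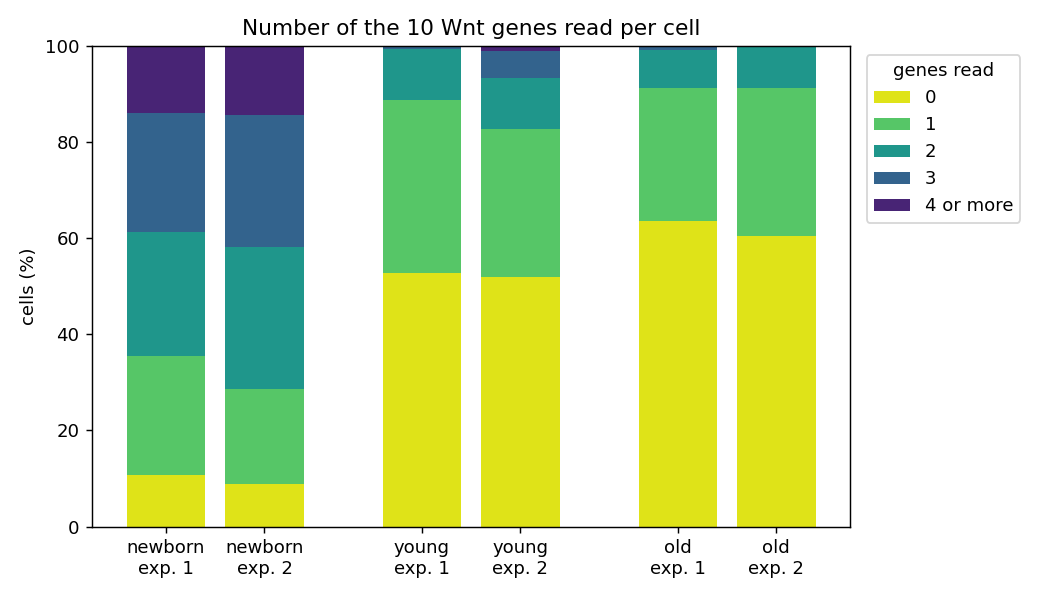
Percent of thinned cells in which 0, 1, 2, 3 or at least 4 of the 10 genes had a read, by age and experiment. Cells with at least 2 made up 8.73 to 17.3% of adult and 64.6 and 71.4% of newborn cells.

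Within newborn dermis the members were set against each other in pairs. Of the 45 pairs of members, 15 had both genes in at least 10% of the cells of each experiment, all among Wif1, Sfrp2, Dkk2, Dkk3, Rspo3 and Axin2. For these 15 the odds ratio of being read in the same cell, taken over both experiments by the Mantel-Haenszel method, ran from 0.717 to 1.67, and the Spearman correlation of log2(CPM + 1) over the 158 and 91 cells from -0.159 to 0.223. The odds ratio was above 1 in both experiments for 7 pairs, below 1 in both for 3 and on different sides for 5. With plates as strata these counts were 5, 4 and 6. Without thinning they were 7, 1 and 7, and the 7 pairs above 1 were not all the same pairs. Cells of 1 experiment share plates and the labels tie them to no mouse, so no p is given.

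Dkk3 and Rspo3 had the highest combined odds ratio of the 15 pairs. Of Dkk3 cells, 37.7 and 41.2% carried Rspo3 in experiments 1 and 2, against 28.6 and 26.3% of the cells without Dkk3 (odds ratios 1.52 and 1.96). Dkk2 and Dkk3 had odds ratios of 1.78 and 1.38, Dkk2 and Rspo3 1.74 and 1.36, and Dkk3 and Axin2 1.33 and 1.85. With plates or numbers of genes per cell as strata, without thinning and without cycling cells, the lowest combined value among these 4 pairs was 1.44, for Dkk3 and Axin2, and the highest 2.16, for Dkk2 and Rspo3 without cycling cells. Without thinning, Dkk2 and Rspo3 lay on different sides of 1 in the experiments (2.03 and 0.991). Sfrp2 and Axin2 had 2.33 and 1.05, a wide gap between experiments. Without thinning they lay on different sides of 1 (4.52 and 0.685), as they did with plates as strata (2.46 and 0.996). Wif1 and Dkk2 lay apart: 19.6 and 16.2% of Wif1 cells carried Dkk2, against 27.1 and 18.5% of the cells without Wif1 (odds ratios 0.656 and 0.852). For Wif1 and Sfrp2, the most abundant inhibitors, the odds ratios were 0.755 and 0.873, and without thinning the combined value was 1.06.

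**Figure D4:**
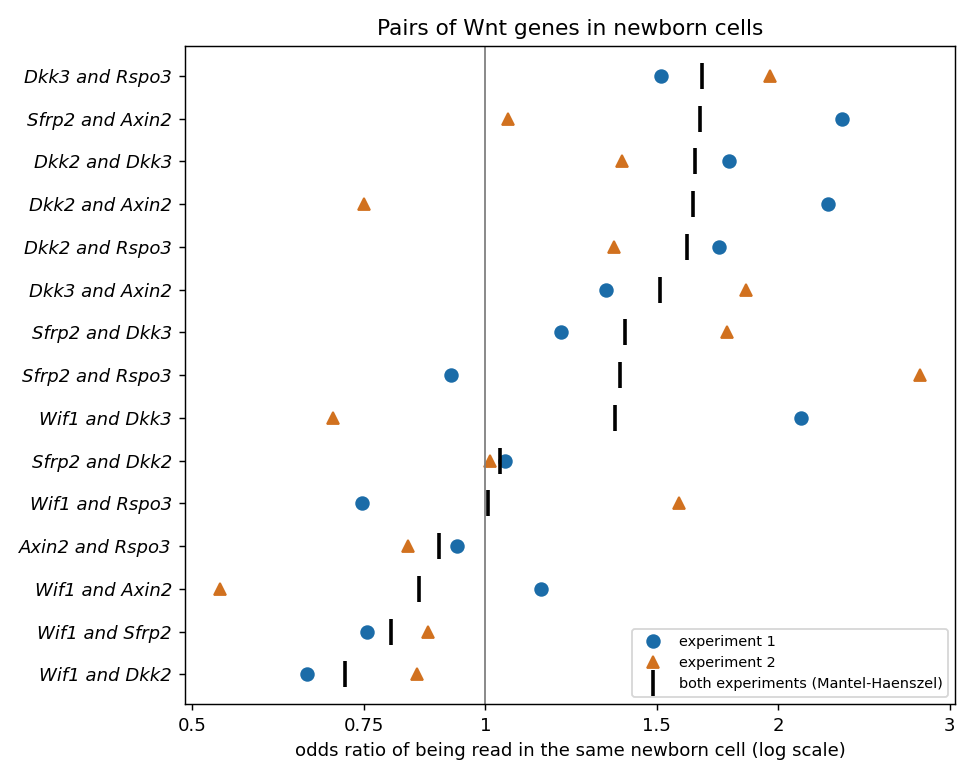
Odds ratio of finding both genes of a pair in the same newborn cell, for the 15 pairs with both genes in at least 10% of cells, on a log scale, with circles for experiment 1, triangles for experiment 2 and bars for both combined. Combined values run from 0.717 for Wif1 and Dkk2 to 1.67 for Dkk3 and Rspo3, and 5 pairs lie on different sides of 1 in the experiments.

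Genes known from newborn fibroblast subsets were paired with the members in the same way, and Dlk1, Crabp1 and Dpp4 were picked for description after their values were seen. Dlk1, a gene of the deep reticular and preadipocyte fibroblasts in newborn mouse skin, was read in 12.8 and 0% of Dkk2 cells, against 39.5 and 34.7% of the cells without Dkk2 (odds ratios 0.225 and 0.0566, the second with 0.5 added to each count because 0 of 16 Dkk2 cells carried it). Axin2 and Dlk1 had odds ratios of 0.263 and 0.16, Rspo3 and Dlk1 0.537 and 0.407, and Dkk3 and Dlk1 0.725 and 0.212. Sfrp2 went the other way with 1.48 and 2.18, and Wif1 had 1.17 and 0.88. The Axin2 values rest on 3 of 23 and 1 of 14 Axin2 cells that carried Dlk1. Without thinning the combined odds ratio with Dlk1 moved from 0.226 to 0.455 for Axin2. It moved from 0.489 to 0.547 for Rspo3 and from 0.495 to 0.713 for Dkk3. Crabp1, a retinoic acid binding protein gene, was read in 38.5 and 43.8% of Dkk2 cells, against 16.8 and 10.7% of the cells without Dkk2 (3.09 and 6.51). It was less frequent in Sfrp2 cells (0.529 and 0.459) and in Wif1 cells (0.449 and 0.474), and with Rspo3 the experiments differed in direction (3.01 and 0.279). Dpp4, which encodes the surface protein CD26 of papillary fibroblasts, had odds ratios with Dkk2 of 1.86 and 2.29, with Rspo3 of 1.45 and 2.42 and with Sfrp2 of 1.28 and 2.18. With Wif1 they were 0.512 and 1.37, and with Axin2 1.19 and 1.0. Lrig1, another papillary marker, had 0.882 and 5.06 with Dkk2 and 2.17 and 2.15 with Sfrp2, and a combined value of 1.09 with Rspo3.

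**Figure D5:**
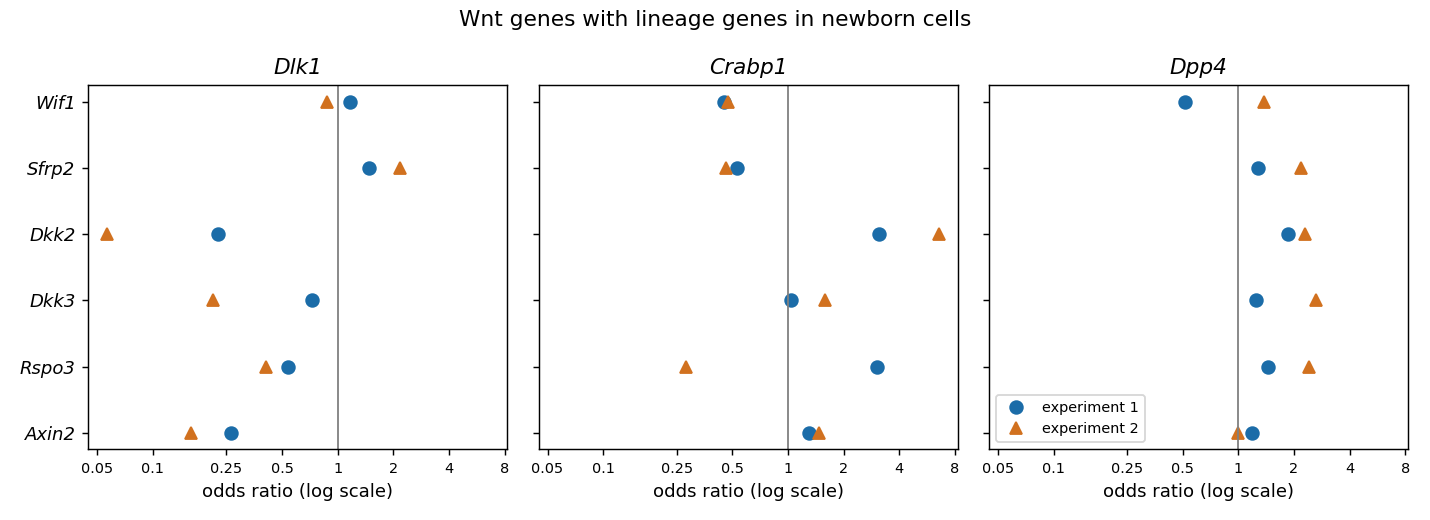
Odds ratio of finding a Wnt gene in the same newborn cell as Dlk1, Crabp1 or Dpp4, on a log scale, with circles for experiment 1 and triangles for experiment 2. With Dlk1, Dkk2 lies at 0.225 and 0.0566 and Sfrp2 at 1.48 and 2.18, and with Crabp1, Dkk2 lies at 3.09 and 6.51 and Sfrp2 at 0.529 and 0.459.

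Over newborn cells, the gene most like Dkk2 among 5360 compared was Wls, the carrier that takes Wnt ligands to the cell surface, with a mean Spearman correlation of 0.367 (0.335 and 0.4 in experiments 1 and 2). Ppic and Prss23 followed at 0.348 and 0.325. Wls was also next to Rspo3 (0.301), behind Gm48159 (0.917), and Ppic followed at 0.269. For Sfrp2 the first gene was Gm26771 (0.889), followed by Col1a2 (0.418) and Col1a1 (0.406), the chains of type I collagen. Gm26771 and Gm48159 are antisense genes that share 347 and 404 exon bases with Sfrp2 and Rspo3, so without a known strand setting their reads cannot be told from those of the members, to which they came to 12.1 and 4.91%. The closest genes given for Wif1 (Vps35, 0.255; Dnajb6, 0.246), Dkk3 (Gnb4, 0.239; Cask, 0.237; Ilk, 0.234) and Axin2 (Tm9sf3, 0.26; Ppp1ca, 0.252; Otulinl, 0.249) were weakly correlated with them. Wls itself was at 1509 and 1922 CPM in newborn sums, 532 and 626 CPM in young sums and 258 and 536 CPM in old sums (edgeR adjusted p 0.125 for old against newborn sums).

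Of 93 other genes of the pathway, 70 were tested and 0 passed in any comparison. Their median log2 fold change was -0.65 for young against newborn, 0.17 for old against young and -0.60 for old against newborn sums. The 2 with the smallest p in each direction are named per comparison. Wnt5a, a ligand of beta-catenin-independent signalling, was at 12.01 and 12.4 CPM in newborn sums, 38.2 and 40.0 CPM in young sums and 47.7 and 61.9 CPM in old sums, the newborn sums below all others (edgeR adjusted p 0.182 and 0.104 for young and old against newborn). Twist2, a transcription factor gene of dermal fibroblasts, was at 500 and 448 CPM in newborn sums, 104 and 48.6 CPM in young sums and 78.4 and 51.6 CPM in old sums (0.12 and 0.0925). Sostdc1, a secreted antagonist of Wnt and BMP signals, was at 114 and 22.1 CPM in newborn sums, with 0 reads in young and 2 in old sums (0.123 and 0.123). Ccn4, a matricellular Wnt target, was at 65.0 and 191 CPM in newborn sums, 38.7 and 41.3 CPM in young sums and 6.44 and 11.1 CPM in old sums (edgeR adjusted p 0.906 for old against young, 0.104 for old against newborn).

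Bmp4, a growth factor gene, was at 213 and 185 CPM in young sums, against 105 and 131 CPM in newborn sums (edgeR adjusted p 0.323). Kremen1, a Dickkopf receptor gene, was at 56.2 and 41.7 CPM in old sums, against 18.5 and 31.4 CPM in newborn sums (0.394). Wnt11, a Wnt ligand gene, was at 4.81 and 6.26 CPM in old sums, against 50.2 and 21.2 CPM in young sums (0.906). Tcf7l2, a partner of beta-catenin, was at 70.6 and 80.4 CPM in old sums, against 46.2 and 44.1 CPM in young sums (0.91). Frzb, a Frizzled-related inhibitor, was at 10.6 and 0.668 CPM in old sums and had 0 reads in young sums (0.906). The old reads lay in 0.794 and 0.877% of thinned cells. In newborn sums Frzb was at 5.90 and 1.67 CPM, read in 0.633 and 1.10% of thinned cells.

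By the annotation of GENCODE M21 on GRCm38, Wif1 lies on chromosome 10 from 121033960 to 121100650, Sfrp2 on chromosome 3 from 83766321 to 83774316, Dkk3 on chromosome 7 from 112116017 to 112159057, Rspo1 on chromosome 4 from 124986430 to 125009099 and Rspo3 on chromosome 10 from 29452416 to 29535867. Lef1 and Dkk2 both lie on chromosome 3, at 131110471 to 131224356 and 132085292 to 132180304, with 0.861 Mb between them.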

How the data were processed

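Raw read counts per gene and cell, 1 table per plate, were deposited by the authors as whole numbers (75.2% of the counts above 0 were even). The submitters' processing notes name GRCm38 and FastQC, with aligner, counting program and strand setting not given in the sources used here. Of 1049 labelled columns 5 without values were left out. Plates correlating above 0.9 well by well were taken as 1 plate in 2 runs and added, giving 861 wells; 735 cells with at least 50000 reads, 1000 genes and at most 25% mitochondrial reads were kept. Sums per age and experiment were compared with edgeR 4.0.16 (robust quasi-likelihood test with TMM factors and filterByExpr; all 6 sums, no covariate beside age, Benjamini-Hochberg threshold 0.05), tested on simulated data. DESeq2 1.42.0 and limma 3.58.1, on log2(mean CPM + 1) and on mean log2(CPM + 1) per cell, were alternatives. Pseudocounts shrink differences of low genes.

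The labels give the experiment as shared by the ages. Deviations from age means correlated at 0.0125, -0.00017 and 0.0107 between ages, and the experiment as a block was an alternative. With n = 2 sums per age, p-values measure only the spread between experiments. Shares carry exact Clopper-Pearson 95% intervals. Intervals and the floor of 3 reads cover counting error only. The floor and the counting intervals of ratios take reads as independent, although the reads of a gene can lie in few cells. They therefore set no limits across cells. Symbols came from GENCODE M21 (51633 of 51777 genes matched). All 10 members are named; other pathway genes are those with the 2 smallest p in each direction; likeness lists the 3 highest mean correlations, of which 1 gene is not reported here. Members, lists and rules were chosen with earlier results of these data known.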

Additional observations from a re-analysis of the deposited data

How the results depend on the processing

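Calls depended on the tool more than on the filters. Counts are given for young against newborn, old against young and old against newborn sums. DESeq2 called 2380, 1048 and 2850 genes and 5, 2 and 4 of the 10 members. Limma on log2(mean CPM + 1) called 825, 0 and 944 genes and 5, 0 and 6 members. Limma on mean log2(CPM + 1) per cell called 1347, 7 and 1822 genes and 5, 0 and 5 of the 7 members it tested. On thinned cells edgeR called 272, 0 and 308 genes and 2, 0 and 3 members. On all reads it called 130, 0 and 156 genes and 0, 0 and 1 members. Without a filter on low counts edgeR called 2 genes between old and young sums. With the experiment as a block, in a paired fit, it called 25, 0 and 51 genes and 0 members; Sfrp2 was the 1 member call it changed. Leaving out 1 sum gave 0 to 42, 0 and 0 to 47 genes, and 0 to 2 members for old against newborn sums. The cause was not tested.

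Members with no called difference changed sign (log2 fold changes). For young against newborn sums these were Sfrp4 (-0.23 in thinned cells, -0.71 to 16.3 leaving out a sum), Dkk2 (-0.15 and -0.36 with limma) and Axin2 (0.15 with the block, 0.20 in thinned cells, -0.85 to 1.03). For old against young sums they were Dkk3 (-0.028 with the block, -0.027 with limma on mean log values, -0.22 without top cells, -0.71 to 0.54), Axin2 (0.69 without top cells, -1.02 to 0.39), Rspo1 (-0.080 with limma on mean log values), Rspo3 (-7.53 to 7.48) and Sfrp1 (-2.60 to 0.67). For old against newborn sums they were Dkk2 (-0.14 in thinned cells, -0.41 and -0.81 with limma, -0.19 without top cells, -0.011 to 0.41), Axin2 (0.23 without top cells, -1.19 to 0.74) and Sfrp4 (-15.9 to 15.2).

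Of 10 members 1 had a higher share in old than in young cells in both experiments, 0 unthinned and 1 to 3 in single experiments. Newborn pairs with an odds ratio over 1 in both experiments numbered 7, or 5 with plates as strata. Unthinned they also numbered 7, but Sfrp2 and Dkk2, Sfrp2 and Axin2, and Dkk2 and Rspo3 were no longer among them. Newborn pairs with an odds ratio under 1 in both experiments numbered 3, or 1 unthinned and 4 with plates as strata. In single experiments they numbered 5 to 6. On the log2 scale the combined odds ratio turned to 0.084 for Wif1 and Sfrp2 unthinned, and for Axin2 and Rspo3 to 0.026 unthinned and 0.048 without cycling cells. Shares at 0 are limited by the number of cells, since 0 cells of a sum allow up to 1.90 to 3.30%.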
